A study of Mus musculus with 12 samples.

Results

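The epidermal growth factor (EGF) receptor family was described here through 10 genes: the receptors Egfr, Erbb2 and Erbb3, the ligands Egf, Areg, Ereg, Btc, Hbegf and Tgfa, and the feedback inhibitor Errfi1. Members were taken by name, as every probe set that the array annotation assigns to 1 of these genes alone. 9 of the 10 genes had such a probe set, 21 probe sets in all out of 45037 that were not controls, and the 9 are part of 18193 genes measured in this way. No probe set was named for Areg (amphiregulin) in the annotation used here, so its level was not analysed here. Egfr had 7 probe sets, Tgfa 3, Erbb3, Btc, Hbegf and Errfi1 had 2 each, and Erbb2, Egf and Ereg had 1 each.

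RNA came from 12 liver samples of B6C3F1 mice, a first-generation cross of inbred strains that is used in 2-year carcinogenicity bioassays and that develops liver tumours without treatment. The first group was 6 hepatocellular carcinomas (HCC) that arose spontaneously, and the other was 6 normal livers as controls. All mice were 2 years old and none had been treated. Each sample was hybridised to 1 single-colour array, so the small number of arrays sets how precise each value is. The labels give neither sex nor pairing, and do not say whether the normal livers came from tumour-free mice, so p-values measure the spread between these samples. Tumour tissue is a mixture of cells, and a change in the share of a cell type cannot be told apart here from a change of RNA per cell.

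EGF family ligands are made as membrane proteins and released by surface proteases of the ADAM family. They bind the extracellular part of EGFR or ErbB4, the receptors pair with one another, and the kinase signals through RAS and ERK and through PI3K. ErbB2 has no known ligand of its own, and ErbB3 has a weak kinase and binds neuregulins. In the liver, EGFR is abundant on hepatocytes, and its ligands are known as signals of liver regeneration. Errfi1 encodes the cytoplasmic protein MIG6, which is induced by EGFR signalling and inhibits the receptor kinase.

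The stretches before the starts of Tgfa, Btc and Egfr are shown because Tgfa and Btc had a probe set that separated the groups and Egfr encodes their shared receptor, which did not pass the test. They are RefSeq sequences of build GRCm38.p6, read 5′ to 3′ on the strand of the gene, and capitals mark the letters GGGCGG or their complement, a GC box. For Tgfa the 66 bases that lie before the annotated gene are given.
Tgfa, chr6:86194972-86195037, plus strand: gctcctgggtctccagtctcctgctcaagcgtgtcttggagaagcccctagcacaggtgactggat
Btc, chr5:91402995-91403244, minus strand: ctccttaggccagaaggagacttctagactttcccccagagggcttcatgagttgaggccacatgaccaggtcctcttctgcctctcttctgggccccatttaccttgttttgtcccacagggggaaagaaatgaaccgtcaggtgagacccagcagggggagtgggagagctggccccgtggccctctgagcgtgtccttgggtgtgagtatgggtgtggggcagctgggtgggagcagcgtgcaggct
Egfr, chr11:16751953-16752202, plus strand: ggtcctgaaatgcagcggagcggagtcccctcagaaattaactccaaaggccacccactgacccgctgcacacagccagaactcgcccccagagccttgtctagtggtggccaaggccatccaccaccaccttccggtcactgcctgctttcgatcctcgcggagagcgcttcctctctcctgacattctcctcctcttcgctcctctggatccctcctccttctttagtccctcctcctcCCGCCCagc

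7 of the 10 members had a promoter among those searched, with 9 windows of 250 bases before a start. Members on chromosome 18, where Hbegf lies, were left out of this search, so the promoter of Hbegf was not examined. Each window was searched on both strands for 5 motifs. The AP-1 site TGANTCA was in none of the 9 windows and in 6.75% of all 32851 promoter windows of that length. The EGR site GCGTGGGCG was also in none of the 9, against 0.536% of all windows. The GC box GGGCGG was in the windows of Tgfa (2 matches), Egfr (1 match), Areg (1 match) and 1 of the 2 windows of Errfi1 (3 matches), against 32.7% of all windows. The TATA box TATAAA was in those of Areg and Errfi1 with 1 match each, against 12.4%, and the ETS site CCGGAAGT was in 1 of the 2 windows of Egf, against 2.88%. GC boxes in Tgfa began 126 and 15 bases before the start, in the part of the window that is not printed. In RefSeq, Ereg, Areg and Btc lie on chromosome 5 in that order, next to the related ligand gene Epgn.

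Levels below are log2(intensity + 16) after quantile normalization, and a gene is represented by its brightest probe set. Differences are HCC minus normal on that scale. They understate the change of dim probe sets, because 16 was added before taking logs. The test is limma with Benjamini-Hochberg adjustment over all 45037 probe sets and a threshold of 0.05. Levels of different probe sets are not compared, because each has its own binding efficiency.

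By the brightest probe set, 2 of 5 measured ligands rose in the tumours, and none of the 3 receptors passed the test. TGF-alpha (Tgfa) rose 2.23-fold and heparin-binding EGF (Hbegf) 3.53-fold, and in both genes all 6 HCC lay above all 6 normal livers. Betacellulin (Btc) rose 2.65-fold by its dimmer probe set, while its brightest probe set, at 2.04-fold, missed the threshold. By the representing probe set, 2 of 9 members passed, both higher, against 10.8% of all genes in either direction and 5.27% in the higher direction. Over all probe sets, 3 of the 21 of the family passed, against 8.33% of all probe sets. All 3 were higher, against 4.38% of all probe sets higher and 3.95% lower. An exact permutation test also called 3 of the 21 (adjusted over all probe sets), against 8.69% of all. The members without overlap between groups by the representing probe set, Tgfa and Hbegf, stand against 4.25% of all genes with all 6 HCC above all 6 normal livers. The median difference over the 9 members was 0.34 and over all genes -0.04.

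Tgfa encodes a ligand of EGFR that was first known from transformed cells, and its forced expression in mouse liver is known to lead to hepatocellular tumours. Its brightest probe set (1421943_at) was at 9.41, 9.72, 9.68, 9.23, 9.52 and 9.52 in normal livers 1 to 6. In HCC 1 to 6 it was at 11.30, 10.17, 10.72, 11.00, 10.23 and 10.61. The lowest tumour, HCC 2, was thus above the highest normal liver, and HCC 1 and HCC 4 were the highest. The group means were 9.51 ± 0.18 in normal liver and 10.67 ± 0.44 in HCC (SD, n = 6 each), a difference of 1.16 ± 0.20 (SE, limma adjusted p = 0.00428). On the deposited scale the same spots ran from 542 to 822 in normal liver and from 1140 to 2525 in HCC. The other 2 probe sets of Tgfa, both dimmer, differed by 0.22 ± 0.20 and 0.19 ± 0.32 and did not pass (limma adjusted p = 0.56 and 0.79). In the third, HCC 3 was the lowest of all 12 arrays, at 5.41. The mean of all probe sets of Tgfa gave 0.52 (limma adjusted p = 0.0489), so the size of the rise rests on 1 probe set.

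Hbegf encodes a ligand of EGFR and ErbB4 that is held at the cell surface and shed on injury. Normal livers 1 to 6 were at 7.43, 6.95, 6.39, 6.64, 7.72 and 7.13 by the brightest probe set (1418350_at). The 6 HCC were at 7.96, 8.09, 10.38, 8.05, 9.30 and 9.40. HCC 3, HCC 5 and HCC 6 stood well above the other 3 tumours, which lay just above the highest normal liver. The means were 7.04 ± 0.49 and 8.86 ± 0.98 (SD, n = 6 each), a difference of 1.82 ± 0.41 (SE, limma adjusted p = 0.0165). In deposited intensity this was 59.8 to 182 in normal liver and 242 to 1315 in HCC. The second probe set of Hbegf was higher than the normal mean in 6 of 6 HCC but above all normal livers in 3, with a difference of 0.52 ± 0.25 that did not pass (limma adjusted p = 0.242). Averaging both probe sets gave 1.17 (limma adjusted p = 0.017).

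Btc, or betacellulin, is a ligand of EGFR and ErbB4 that is best known from the pancreas. By the brightest probe set (1435541_at), normal livers were at 7.31, 7.96, 7.25, 7.56, 7.37 and 8.08, and HCC at 8.24, 7.83, 8.91, 8.30, 8.19 and 10.21. HCC 2 lay within the range of normal liver and HCC 6 far above the other tumours. The difference was 1.03 ± 0.35 (SE, n = 6 each, limma adjusted p = 0.0928), and without HCC 6 it was 0.71 (limma adjusted p = 0.0911). In the dimmer probe set (1421161_at) normal livers lay between 5.50 and 6.63 and HCC between 6.83 and 8.84, without overlap. That difference was 1.40 ± 0.34 (SE, limma adjusted p = 0.0235). Its call was lost without normal 2 (1.28, limma adjusted p = 0.0531), normal 4 (1.35, 0.0527) or HCC 3 (1.28, 0.0505). The probe sets of Btc moved together over the 12 arrays (Pearson r = 0.851, n = 12, which includes the difference between groups), whereas r was 0.624 for Hbegf and between -0.317 and 0.505 for the 3 of Tgfa. Over all probe sets, 3.41% had all 6 HCC above all 6 normal livers and 3.08% had all below. In the family, 3 probe sets had all above, the same that passed, and none had all below.

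The other ligands did not pass. Ereg (epiregulin), a ligand of EGFR and ErbB4, was at 6.35, 4.92, 5.34, 6.91, 5.29 and 5.86 in normal livers and at 5.46, 6.99, 7.04, 6.32, 5.57 and 6.61 in HCC. The groups overlapped almost fully, with 2 of 6 HCC above all normal livers. Its difference of 0.55 ± 0.38 had a 95% interval from -0.27 to 1.37 (limma adjusted p = 0.424). Egf, the founding ligand of the family, lay between 5.42 and 7.21 in normal liver and between 6.11 and 6.86 in HCC. Its difference was 0.14 ± 0.29, with a 95% interval from -0.47 to 0.76 (limma adjusted p = 0.82). Both were dim, where the 16 added before logs shrinks a change.

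**Figure D1:**
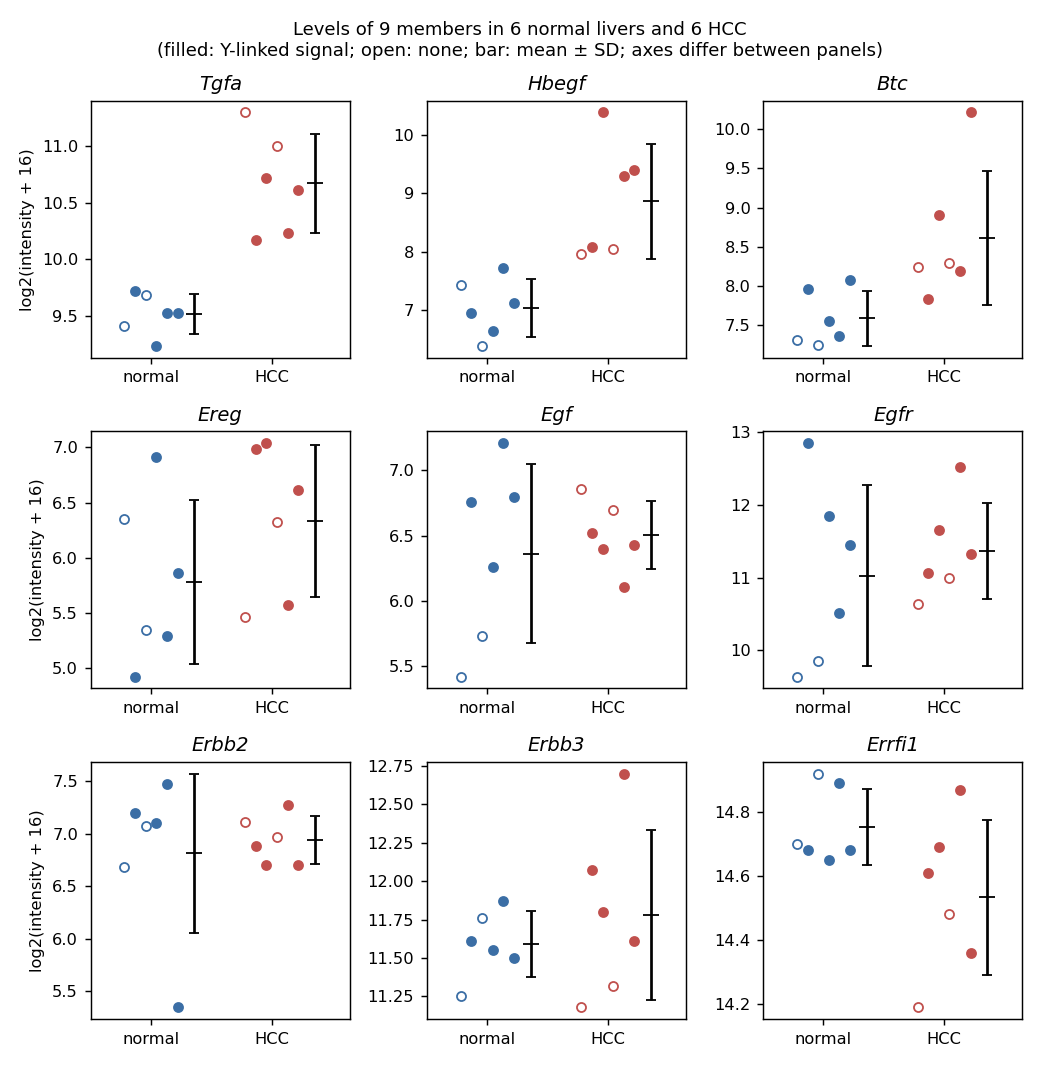
Levels of the brightest probe set of 9 members, as log2(intensity + 16) after quantile normalization (vertical axes, which differ between panels), in 6 normal livers (blue) and 6 HCC (red). Filled points are arrays with Y-linked signal and open points arrays without it; bars are mean ± SD. Tgfa and Hbegf have no overlap between groups, while Egfr, Erbb2, Erbb3, Egf and Ereg overlap.

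Transcripts of the receptors did not separate the groups. None of the 10 receptor probe sets passed (limma, adjusted p from 0.353 to 0.93), against 8.33% of all probe sets. Few of 10 would pass at that share, so nothing particular to receptors is read from this count. None had an unadjusted limma p under 0.05, and none passed an exact permutation test, which called 8.69% of all probe sets. Egfr was measured by 7 probe sets with differences between -0.41 and 0.42, the brightest at 0.34 ± 0.52 with a 95% interval from -0.78 to 1.45. That interval includes a rise as large as that of Tgfa, so it does not show that Egfr was equal in both groups. By the brightest probe set (1435888_at) normal livers 1 to 6 were at 9.64, 12.85, 9.86, 11.85, 10.51 and 11.45. In HCC 1 to 6 it was at 10.64, 11.06, 11.66, 10.99, 12.52 and 11.32. Normal livers held both the lowest and the highest of the 12 values, and the SD was 1.24 in normal liver against 0.66 in HCC.

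Erbb2, the receptor that acts as a partner for the others, was at 6.81 ± 0.76 in normal liver and 6.94 ± 0.23 in HCC (SD, n = 6 each), a difference of 0.13 ± 0.31 (limma adjusted p = 0.851). Normal 6, at 5.35, lay apart from the other normal livers, which were between 6.68 and 7.47, and without it the difference was -0.16. Erbb3, the neuregulin receptor that couples to PI3K, was at 11.25, 11.61, 11.76, 11.55, 11.87 and 11.50 in normal livers. The 6 HCC were at 11.18, 12.07, 11.80, 11.32, 12.70 and 11.61. The tumours thus spread to both sides of normal liver, with 2 above all normal livers and 1 below, and the difference was 0.19 ± 0.24 (95% interval from -0.33 to 0.71, limma adjusted p = 0.692). The second probe set of Erbb3 was at 0.73 ± 0.44 (95% interval from -0.22 to 1.68, limma adjusted p = 0.353). HCC 5 was the highest tumour in the brightest probe set of Erbb3, while HCC 3 was the highest in the second, at 7.73 against 7.56 in HCC 5. For Egfr, HCC 5 was the highest tumour in the 4 brightest probe sets.

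The transcript of the inhibitor Errfi1 was at 14.75 ± 0.12 in normal liver and 14.53 ± 0.24 in HCC (SD, n = 6 each). In 4 of 6 HCC it lay below all normal livers, from 14.19 in HCC 1 to 14.61 in HCC 2, and in HCC 3 and HCC 5 it was within their range. The difference of -0.22 ± 0.15 did not pass (95% interval from -0.54 to 0.10, limma adjusted p = 0.418). Its second probe set differed by -0.02 ± 0.23 (limma adjusted p = 0.971). Thus neither probe set of the inhibitor passed in either direction.

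**Figure D2:**
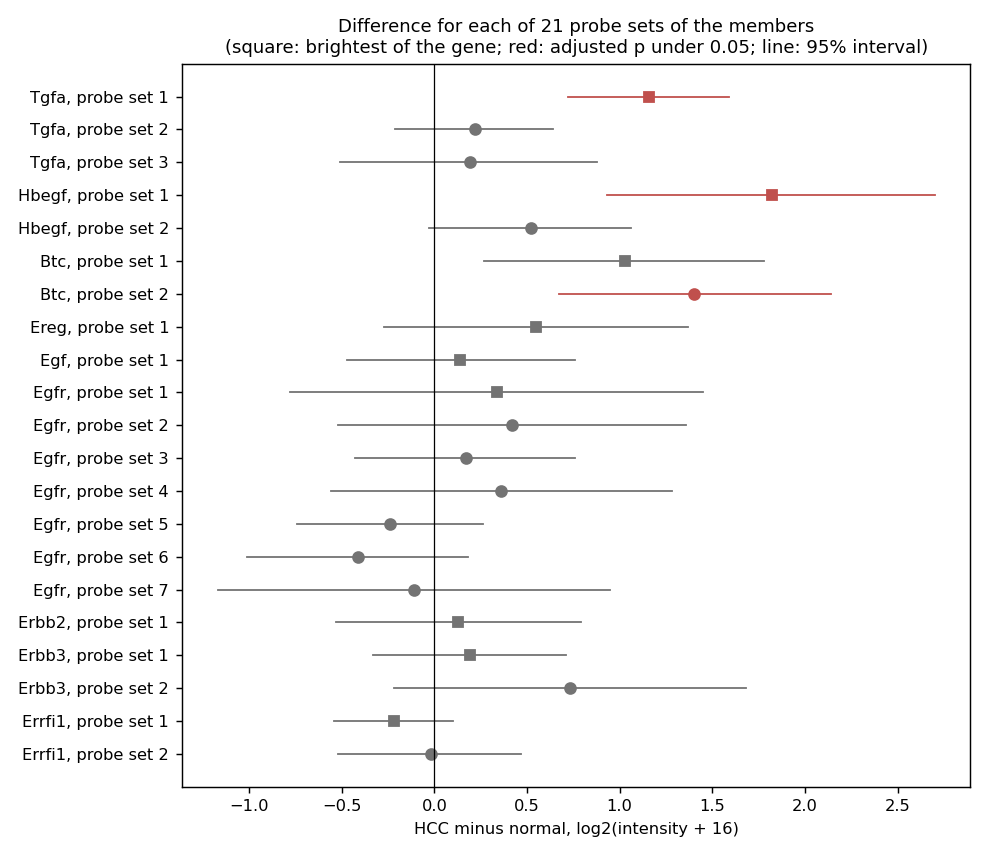
HCC minus normal liver for each of the 21 probe sets of the family, numbered within each gene from the brightest, on the log2(intensity + 16) scale (horizontal axis). Squares are the brightest probe set of a gene, circles the others, lines the 95% interval from limma and red marks an adjusted p under 0.05. The 3 red probe sets belong to Tgfa, Hbegf and Btc, and receptor probe sets lie between -0.41 and 0.73.

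Tumour by tumour, each HCC had more Tgfa, Hbegf and Btc transcript than the mean normal liver by the brightest probe sets. The tumour with the highest value differed between these ligands. Against the normal mean and by the brightest probe set of each gene, Tgfa stood at 1.78 in HCC 1. HCC 4 was next at 1.48, and the other tumours ran from 0.66 to 1.20. Hbegf was highest in HCC 3 at 3.33, then in HCC 6 at 2.35 and HCC 5 at 2.26, with the other tumours from 0.92 to 1.04. For Btc the top value was 2.62 in HCC 6, followed by 1.32 in HCC 3, and the remaining tumours ran from 0.24 to 0.71. In these probe sets, the tumours with the highest Tgfa were therefore among those with the least Hbegf. The second probe set of Tgfa was instead highest in HCC 3, at 0.66, with HCC 4 at 0.08. In the third of Tgfa, HCC 4 and HCC 1 were again highest, at 0.84 and 0.65. HCC 2 had the lowest differences of the 6 in the brightest probe sets of Tgfa and Btc, at 0.66 and 0.24. It was high in Ereg, at 1.21. By the brightest probe sets, HCC 5 combined Hbegf with the highest Egfr (1.49) and Erbb3 (1.11) of the tumours. These are values of single tumours, and no test was made between them.

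**Figure D3:**
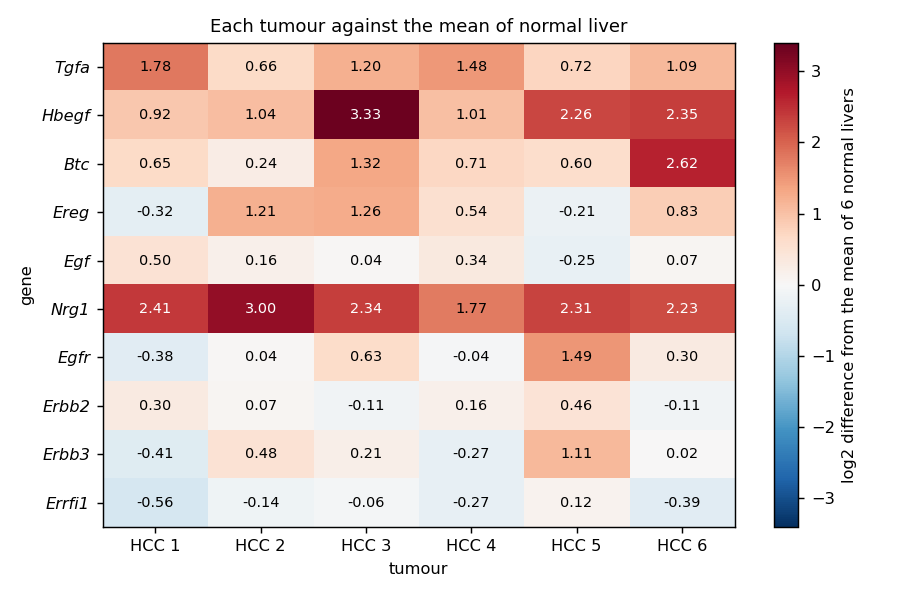
Difference of each tumour (columns) from the mean of 6 normal livers for 9 members and Nrg1 (rows), on the log2(intensity + 16) scale, coloured from blue (lower) to red (higher). Tgfa, Hbegf, Btc and Nrg1 are above 0 in all 6 tumours, and the largest value is 3.33, for Hbegf in HCC 3.

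Arrays with and without Y-linked signal occurred in both groups. The mean level of Eif2s3y, Kdm5d and Uty was 8.96 to 9.77 on 8 arrays and 4.17 to 4.85 on 4. The 4 without it were normal 1, normal 3, HCC 1 and HCC 4. The level of Egfr differed along this split, and the part of sex, which the labels do not give, was not tested. Normal livers without Y-linked signal had Egfr at 9.64 and 9.86 and those with it at 10.51 to 12.85. Among HCC the values were 10.64 and 10.99 without it and 11.06 to 12.52 with it. In this probe set the arrays with and without it did not overlap within either tissue, while in the third and the fourth brightest they overlapped among HCC. The Y-linked term of the fit that has it beside group, a test chosen after the data were seen, gave 1.37 ± 0.41 for arrays with it minus arrays without it. This had an unadjusted p of 0.00594 and did not pass over all probe sets (limma adjusted p = 0.489). The same fit gave 1.18 ± 0.34, 0.61 ± 0.25 and 0.97 ± 0.38 in the next 3 probe sets of Egfr. In all, 0 of 21 probe sets of the family passed it, against 26 of all probe sets, or 0.0577%. An unadjusted limma p under 0.05 was seen in 6 of the 21, 5 of Egfr and 1 of Erbb3. The share of all probe sets at that unadjusted limit is not given here, so nothing is read from the 6. They are not separate results either, because the 4 brightest probe sets of Egfr followed one pattern over the arrays.

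Within the arrays with Y-linked signal, Egfr was at -0.03 ± 0.50 in HCC against normal (limma adjusted p = 0.984). Within those without it, Egfr was at 1.07 ± 0.28 and did not pass (limma adjusted p = 0.231, 2 HCC and 2 normal livers). These differences were not shown to differ from each other (limma interaction -1.09 ± 0.79, adjusted p = 0.822). The rise of Tgfa was 0.93 ± 0.21 with Y-linked signal (limma adjusted p = 0.0511, 4 HCC and 4 normal livers) and 1.60 ± 0.28 without it (adjusted p = 0.145, 2 and 2). That of Hbegf was 2.18 ± 0.46 (adjusted p = 0.039) and 1.09 ± 0.43 (adjusted p = 0.371). Btc differed by 1.04 ± 0.48 and 0.99 ± 0.25 in these sets (limma adjusted p = 0.276 and 0.216). Among the 21 probe sets of the 10 genes, that of Egf had the largest interaction. Normal livers without Y-linked signal were at a mean of 5.57 and those with it at 6.76, whereas HCC were at 6.78 and 6.37. The limma interaction of -1.60 ± 0.38 had an unadjusted p of 0.00147 and did not pass (adjusted p = 0.246). None of these 21 probe sets passed the interaction, against 20 of all probe sets, or 0.0444%. Only that of Egf had an unadjusted limma p under 0.05, a limit for which the share of all probe sets is not given here. HCC 1 and HCC 4 are the tumours without Y-linked signal and also those highest in the brightest probe set of Tgfa. These 2 features thus cannot be told apart among the tumours.

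**Figure D4:**
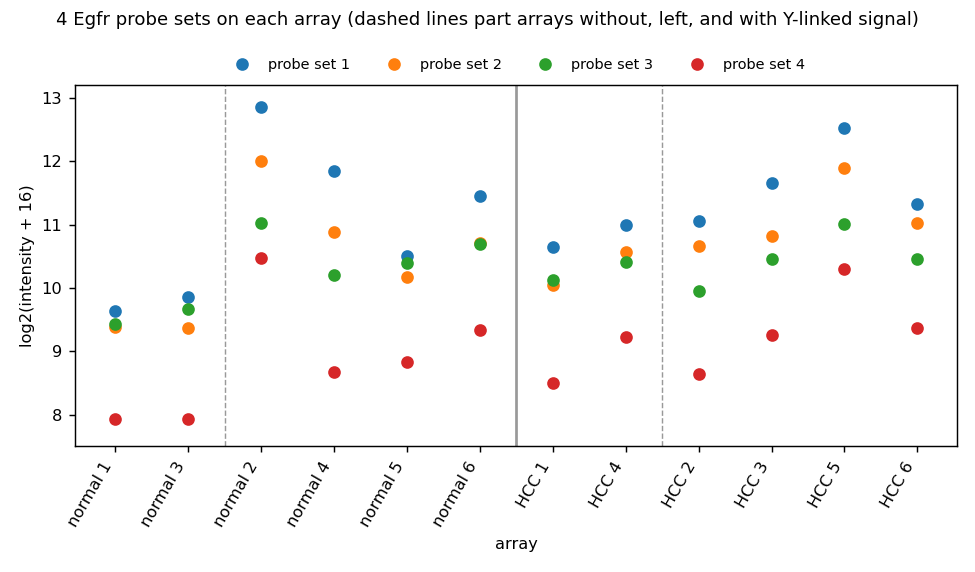
Level of Egfr in its 4 brightest probe sets, as log2(intensity + 16), on each of the 12 arrays. A solid line parts normal liver from HCC, and dashed lines part arrays without Y-linked signal (left) from those with it. In the brightest probe set the arrays without Y-linked signal lie at 9.64 and 9.86 in normal liver and at 10.64 and 10.99 in HCC, below the others of their group.

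The 4 brightest probe sets of Egfr gave one pattern over the arrays, with pairwise Pearson r from 0.88 to 0.977 (n = 12 arrays of the same libraries). The remaining 3 were related less closely to the brightest, with r of 0.287, 0.65 and 0.394. In 1 of these 3 (1432647_at), HCC lay below the normal mean in 5 of 6 arrays and below all normal livers in 3, at -0.41 ± 0.28 (limma adjusted p = 0.407). Which transcripts these probe sets detect was not analysed here.

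The genes most like the 2 members that passed were named by the highest Pearson r over the 12 arrays, among genes above the median level. For Tgfa these were Fndc10 (r = 0.972), Dhx15 (0.970) and Rbbp7 (0.967). For Hbegf they were Rgs19 (0.951), Gss (0.937) and Slc4a1 (0.922). The correlations include the difference between HCC and normal liver, and they are a description.

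Of the other receptors and ligands of the family, 1 of 6 passed, against 10.8% of all genes. Neuregulin 1 (Nrg1), a ligand of ErbB3 and ErbB4, rose by 2.34 ± 0.37 (SE, limma adjusted p = 0.00232). Its mean was 5.76 ± 0.91 over the normal livers and 8.10 ± 0.39 over the tumours (SD, n = 6 each). Normal livers 1 to 6 were at 6.21, 4.31, 5.30, 6.89, 5.53 and 6.29 and the HCC at 8.16, 8.76, 8.10, 7.53, 8.06 and 7.98. All tumours lay above all normal livers, and their spread was small. Within the arrays with Y-linked signal the difference was 2.47, and within those without it 2.09. Values were 0.51 ± 0.32 for the receptor Erbb4, -0.68 ± 0.36 for Nrg2, -0.04 ± 0.36 for Nrg3 and 0.22 ± 0.31 for Nrg4. Epigen (Epgn) was at -0.16 ± 0.23, and none of these passed (limma adjusted p from 0.279 to 0.967). Erbb4 was close to the floor of 4 in normal liver, at 4.61 ± 0.29.

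Genes that release ligands from the membrane had 4 of 12 measured members higher and none lower. Over all genes, 5.27% were higher and 5.49% lower. The list median was 0.60, against -0.04 over all genes. The pseudoproteases iRhom1 (Rhbdf1) and iRhom2 (Rhbdf2), which bring the protease ADAM17 to the cell surface, rose by 1.58 ± 0.16 and 1.70 ± 0.35 (limma adjusted p = 0.0001 and 0.0103). Rhbdf1 was at 8.32 ± 0.24 in normal liver and 9.91 ± 0.18 in HCC (SD, n = 6 each), with all 6 HCC above all normal livers, and Rhbdf2 had 4 of 6 above. Rhbdf2 lost its call with the replicate block (1.70, limma adjusted p = 0.0622) and in the exact permutation test (adjusted p = 0.0629). Frmd8, which stabilises the complex of iRhom and ADAM17, rose by 0.74 ± 0.20 and the protease Adam10 by 0.65 ± 0.17. Adam17 itself was at 0.16 ± 0.17 (limma adjusted p = 0.629). Frmd8 lost its call without normal 1, 2, 3, 4 or 6 or without HCC 1, 4, 5 or 6 (0.61 to 0.78, limma adjusted p from 0.051 to 0.0747). Adam10 lost it without normal 1, 2, 4, 5 or 6 or HCC 1, 5 or 6 (0.57 to 0.67, limma adjusted p from 0.0512 to 0.0674), and with median centring (adjusted p = 0.0622).

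Downstream of the receptors, adaptors and effectors had 24 of 29 genes measured, of which none was higher and 2 were lower, with a list median of -0.09. Over all genes, 5.27% were higher and 5.49% lower, and nothing is read from 2 of 24. The RAS exchange factor Sos1 fell by 0.75 ± 0.15 on the log2 scale (limma adjusted p = 0.00866) and the PI3K catalytic subunit Pik3cb by 0.63 ± 0.16 (adjusted p = 0.0293). In both, all 6 HCC lay below all normal livers. The mean of all probe sets of Sos1 was at -0.34 (limma adjusted p = 0.173). Pik3cb lost its call without normal 1, 3, 4, 5 or 6 or HCC 1, 3 or 5 (-0.65 to -0.56, limma adjusted p from 0.0502 to 0.0614), with the deposited scaling (-0.48, adjusted p = 0.0925) and with median centring (-0.55, adjusted p = 0.08). Of 20 measured negative regulators and trafficking genes, 2 were higher and none lower, with a list median of 0.21. Against 5.27% of all genes higher, nothing is read from 2 of 20 either. They were Socs5, which has been linked to EGFR degradation, at 0.77 ± 0.14 (limma adjusted p = 0.00665), and the adaptor Grb10, an inhibitor of insulin and IGF receptor signalling, at 1.61 ± 0.37 (adjusted p = 0.0195).

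Transcripts listed here as dependent on ERK, a kinase downstream of these receptors, had 12 of 17 measured members higher and none lower. The list median was 1.30. Whether these transcripts depended on ERK or on these receptors in these tissues was not tested. The ERK phosphatase Dusp5 was at 3.93 ± 0.29, Ier3 at 3.36 ± 0.74, and the immediate early transcription factors Egr1 and Fos at 3.06 ± 0.53 and 2.25 ± 0.45 (limma adjusted p from 1.15e-05 to 0.0152). Ier3 lost its call in the exact permutation test (adjusted p = 0.0629). Of 12 membrane proteins listed here as partners of EGFR, 5 were higher and none lower, with a list median of 0.92. Whether each of them works with EGFR in these tissues was not tested. Among them E-cadherin (Cdh1) was at 4.68 ± 0.22, glypican 3 (Gpc3) at 5.38 ± 0.48, integrin alpha 6 (Itga6) at 2.32 ± 0.53 and caveolin 1 (Cav1) at 2.17 ± 0.45 (limma adjusted p from 2.82e-07 to 0.017). The fifth was the receptor kinase Mst1r (RON), at 1.56 ± 0.28 (limma adjusted p = 0.00463), with all 6 HCC above all normal livers. The other receptor kinases of the list, Met, Igf1r, Insr and Axl, did not pass. Over all 6 lists, 24 of 91 genes were higher and 2 lower, against 5.27% and 5.49% of all genes. The lists were chosen with earlier results of these data known, so these counts are a description and no enrichment is read from them.

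**Figure D5:**
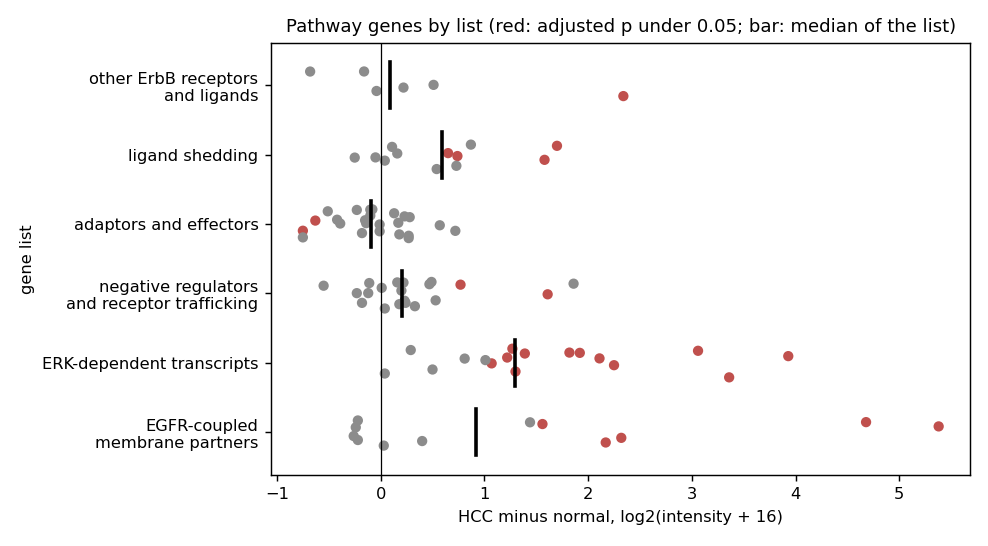
HCC minus normal liver for each measured gene of the 6 pathway lists (rows), on the log2(intensity + 16) scale (horizontal axis). Each point is the brightest probe set of a gene, red marks an adjusted p under 0.05, and black bars are list medians, from -0.09 for adaptors and effectors to 1.30 for ERK-dependent transcripts.

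The arrays were those of liver, with Alb, Apoa1, Ttr and Cps1 bright in both groups and 0 of 4 hepatocyte markers past the test (limma, adjusted p from 0.215 to 0.958). Apoa1 stood at 16.06 in all normal livers, the top of the scale. Quantile normalization makes the top value equal between arrays, so the test of Apoa1 says little. Cps1 differed by -0.86 ± 0.40, with 4 of 6 HCC below all normal livers, down to 12.65 in HCC 1. HCC 6 had the highest summed intensity of the tumours for macrophage, stellate and fibroblast, T and NK cell and neutrophil markers. Its sum for the 6 stellate and fibroblast markers was 28529, against 7774 to 12355 in normal livers and down to 5155 in other HCC, and 1 of these 6 markers was lower in HCC and none higher. The lower one was Lrat, at -2.52 ± 0.59. Col1a1 was at 3.27 ± 0.95, with 5 of 6 HCC above all normal livers, and did not pass (limma adjusted p = 0.0515). Dcn was at -2.07 ± 0.62, with 5 of 6 HCC below all normal livers, and did not pass either (limma adjusted p = 0.0595). The others were Des at -0.89, Pdgfrb at 0.51 and Reln at 1.14, none past the test, so this list had no single direction. The 6 endothelial markers summed to 3890 to 6688 in normal liver and 1560 to 4909 in HCC, with 2 lower (Stab2 at -1.11 and Clec4g at -2.13) and none higher. The endothelial marker Pecam1 was at 1.38 ± 0.48, and it and Cdh5 each had 5 of 6 HCC above all normal livers without passing (limma adjusted p = 0.0997 and 0.119), so the list had no single direction. For the 6 macrophage markers the sums were 5545 to 12365 in normal liver and 3596 to 12993 in HCC, with 1 lower (Clec4f at -2.36) and none higher. Cd68 was at 1.34 ± 0.51, with 5 of 6 HCC above all normal livers, and did not pass (limma adjusted p = 0.135). The highest sum of 6 mast cell markers, 2157, was in HCC 1, against 281 to 557 in normal livers, and none of the 6 passed. No marker of these lists was under an intensity of 16 on every array. HCC 6 was also the tumour with the highest Btc, and the part of these cells in the ligand values was not tested. Without HCC 6 the difference of Hbegf was 1.71 (limma adjusted p = 0.0399) and that of Tgfa 1.17 (adjusted p = 0.00889).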

How the data were processed

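Each of 12 liver samples was measured on 1 Affymetrix array, labelled by one-cycle cDNA synthesis per the labels' protocols. The intensity values, as deposited by the authors, were linear signals for 45101 probe sets with a 2% trimmed mean of 500.0 on every array. How probe signals were summarised is not stated in the labels. Array medians ran from 92.4 to 114.3, and 14.2% to 18.1% of probe sets lay under 16. Tests left out 64 controls. Of the remaining probe sets, 34945 named 1 gene, 932 several and 9160 none in the annotation used.

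log2(intensity + 16) was quantile normalized and fitted with limma 3.58.1 (R 4.3.3; lmFit and eBayes), two-sided. Probe sets of 1 gene were kept apart, and the brightest represents the gene. An exact permutation test over 924 assignments was an alternative. The fit was tested on simulated data with known log2 differences. It called 0 of 50 differences of 0.5, 15 of 50 of 1.0, 41 of 50 of 2.0 and 48 of 50 of 4.0. Of 44837 simulated probe sets without a difference it called 6. A gene that did not pass may therefore still differ. Deviations from the group means correlated at -0.0177 to 0.0636 between arrays of one number, and no pairing was assumed.

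Members and lists were chosen with earlier results of these data known. Besides the members, the text names the 6 other family genes and up to 4 genes per list with the largest difference past the test, plus the 3 genes most like each member that passed. Adam17, the receptor kinases of the lists and single markers were added after values were seen. Alternatives were other pseudocounts and scalings, a filter on dim probe sets, other variance models, array weights, the replicate block, gene-level fits, Y-linked signal, and each array left out. Tables and figures used Python 3.11.15, pandas 2.3.3 and matplotlib 3.10.9.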

Additional observations from a re-analysis of the deposited data

Results flagged for a closer look

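In 86 groups of 6 arrays, from the probe sets of the family and the other named genes, 5 arrays lay farther from the rest of their group than Dixon's 95% limit allows, and chance gives about 1 in 20. Normal 6 was low in Erbb2, at 5.35. Normal 3 was low in 1 of the dimmer probe sets of Egfr, at 7.58, and HCC 5 was high in the dimmest one, at 6.87. HCC 6 was low in Epgn, at 5.90, and normal 5 was low in Itga6, at 5.47.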

How the results depend on the processing

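The calls of Tgfa and Hbegf held with other pseudocounts, scalings, variance models, array weights, the dim filter, gene-level fits, the exact permutation test and each array left out. With 1 array left out, Tgfa ran from 1.03 to 1.26 and Hbegf from 1.52 to 2.00. As the mean of all probe sets, Tgfa was only at 0.52 and Hbegf at 1.17 (limma adjusted p = 0.0489 and 0.017). With the replicate block they were at 1.16 (limma adjusted p = 0.034) and 1.82 (0.0493), Btc and Egfr stayed not called at 1.03 and 0.34, and probe sets past the test went from 1971 higher and 1780 lower to 1159 and 926. In arrays with Y-linked signal Tgfa missed the threshold at 0.93; without it Tgfa was at 1.60 and Hbegf at 1.09, not called, from 2 arrays a group. There 1 and 0 member genes and 1 and 0 member probe sets passed, with 817 and 7 of all probe sets higher, 664 and 3 lower, and 13 and 1 of the pathway genes, against 26. Btc passed without dim probe sets and with the trended and robust fit (1.03 each) and as the mean of its probe sets (1.22). Directions not past the test reversed in arrays with Y-linked signal for Egfr (-0.03), Egf (-0.39) and Nrg3 (0.27), without it for Erbb3 (-0.25) and Nrg4 (-0.43), and in the probe set mean for Nrg3 (0.09). With 1 array left out, Erbb2 ran from -0.16 to 0.26, Egf from -0.05 to 0.31, Nrg3 from -0.23 to 0.16, Btc from 0.71 to 1.18 and Egfr from 0.06 to 0.70, and probe sets lower from 1128 (without normal 5) to 1935. Within the replicate block Adam10, Frmd8, Rhbdf2 and Pik3cb lost their calls (limma adjusted p from 0.0622 to 0.0975), and Ier3 and Rhbdf2 in the exact permutation test (0.0629 each). Of 20 named calls, 16 held with each array left out. The sets split by Y-linked signal hold fewer arrays than the main test, and the cause of changed calls was not tested in any setting.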
